A study of Mus musculus with 8 samples.

Results

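The genes described here encode the proteins that license replication origins and run the DNA replication fork. They are 42 genes of the 18193 that the array measured under exactly 1 annotated symbol, chosen as a list of names that covers the MCM helicase, the origin recognition complex, the loading factors, Cdc45 with the GINS complex and the Cdc7 kinase, PCNA with its clamp loader, the polymerases and primase, replication protein A, Okazaki fragment maturation and ribonucleotide reductase. All 42 were measured. The cells were NG4, a mouse embryonic stem cell line, reverse transfected with a small interfering RNA (siRNA) to Sox2, to Psmd14 or to Ddb1, or with a non-targeting siRNA as the control. RNA was taken 48 h later and read on Affymetrix expression arrays, 2 arrays per group, 8 in all. The groups are called siSox2, siPsmd14, siDdb1 and siNonTarget. No other treatment is labelled, and all groups share the cell line and the transfection. Sox2 is a core pluripotency transcription factor, Psmd14 removes ubiquitin chains at the lid of the proteasome, and Ddb1 is the adaptor that joins substrate receptors to the CUL4 ubiquitin ligases (CRL4). A gene was read by its brightest probe set, and values are log2 of the deposited intensity. Fold changes are differences between group means of these values, on the log2 scale. The labels do not state whether the paired arrays of a group are separate cultures, and the p-values cover the spread among these arrays alone, some or all of which may be technical.

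An origin is licensed in G1, when the origin recognition complex, Cdc6 and Cdt1 load the ring-shaped MCM helicase onto DNA. Geminin, the product of Gmnn, binds Cdt1 and keeps it from loading more helicase once S phase has begun. Cdt1 is also destroyed in S phase, when CRL4 with its receptor Cdt2 ubiquitinates Cdt1 bound to PCNA on chromatin, which makes the Cdt1 protein a textbook substrate of the ligase that the Ddb1 siRNA targets. At the start of S phase the Cdc7 kinase with Dbf4 phosphorylates the helicase, Cdc45 and GINS join it, and the polymerases begin synthesis. Embryonic stem cells spend much of their cycle in S phase and have a short G1. Many of these genes are transcribed at the G1 to S transition under E2F transcription factors, which bind words such as TTTCCCGC, TTTCGCGC, TTTGCCGC and TTTGGCGC.

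RefSeq promoter windows of build GRCm38.p6 were given for 34 of the 42 genes, and the 250 bases before the gene start were searched for these 4 words on both strands, with overlapping matches kept. A match was found for 9 of the 34 genes (26.5%), namely Mcm5, Mcm6, Mcm7, Orc1, Orc3, Cdc6, Gins3, Rfc3 and Pola1. Of all 27025 genes with a window 2.16% had a match, and of the 14452 of them that the array measured 3.15% had one. By window, 9 of the 42 windows of these genes and 1.86% of all 32851 windows held a word. Stretches around the matches are shown for 5 genes that act in licensing (3 helicase genes, Orc1 and Cdc6), with each E2F word in capitals. They lie at chr8:75109316-75109407 on the plus strand for Mcm5, chr1:128359706-128359855 on the minus strand for Mcm6, chr5:138172001-138172088 on the minus strand for Mcm7, chr4:108579387-108579453 on the plus strand for Orc1 and chr11:98907973-98908060 on the plus strand for Cdc6, and each is written 5′ to 3′ along its gene.
Mcm5: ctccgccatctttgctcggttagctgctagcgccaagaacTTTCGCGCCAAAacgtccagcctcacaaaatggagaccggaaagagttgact
Mcm6: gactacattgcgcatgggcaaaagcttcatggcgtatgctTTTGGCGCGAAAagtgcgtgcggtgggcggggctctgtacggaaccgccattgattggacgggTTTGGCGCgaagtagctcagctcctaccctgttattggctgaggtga
Mcm7: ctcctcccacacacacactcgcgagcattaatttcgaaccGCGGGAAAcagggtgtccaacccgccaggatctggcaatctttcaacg
Orc1: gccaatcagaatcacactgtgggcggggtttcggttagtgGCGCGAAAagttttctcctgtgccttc
Cdc6: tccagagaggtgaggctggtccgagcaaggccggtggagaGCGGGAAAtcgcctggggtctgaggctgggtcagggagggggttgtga
In Mcm5 and Mcm6 the capitals join because a word on the plus strand and a word on the minus strand overlap, and Mcm6 holds a further word nearer the gene start. A match describes letters in the window and is not a measured binding site.

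The targeted transcripts were read as a check of the labels. Ddb1 signal in siDdb1 was 22.1% and 46.1% of the siNonTarget mean, Sox2 in siSox2 was 83.6% and 69.8%, and Psmd14 in siPsmd14 was 90.5% and 82.7%. None of the 3 passed the threshold against siNonTarget (limma adjusted p = 0.147 for Ddb1, 0.301 for Sox2 and 0.522 for Psmd14), so the transcripts do not show how deep the Sox2 and Psmd14 knockdowns were. Ddb1 fell in siDdb1 against siSox2 (log2 fold change -1.92, limma adjusted p = 0.00888), a call lost without siSox2 replicate 2 (-1.84). Array medians lay between 27.37 and 28.83 intensity units. All 8 embryonic stem cell markers examined, among them Pou5f1 and Nanog, lay above the array median on every array, and 1 of them, Esrrb, fell in siSox2 (-0.58, limma adjusted p = 0.0399), a call lost with the replicate block, with only the 4 arrays compared, with the mean over probe sets and without any of 6 single arrays. All 8 fold changes of these markers were below 0 in siSox2 (median -0.39) and in siPsmd14 (median -0.38), and 7 of 8 in siDdb1 (median -0.14). Over all genes 10048, 9570 and 9672 of 18193 were below 0 in siSox2, siPsmd14 and siDdb1. At an unadjusted limma p of 0.05, 5, 4 and 1 of the 8 markers passed, all lower, where 19.1%, 17.1% and 9.86% of all genes passed. The summed intensity of 11 trophoblast markers was 15228 to 27847 in siSox2, 9952 to 11696 in siPsmd14 and 3766 to 4005 in siDdb1, against 2666 to 3009 in siNonTarget. On the knockdown arrays the keratin genes Krt8 and Krt18 made up most of these sums. In siPsmd14 Krt8 read 12.51 and 12.40, against 9.92 and 9.74 in siNonTarget. The median fold changes of the 11 were 2.33, 0.80 and 0.54 in siSox2, siPsmd14 and siDdb1. Below 0 lay 0, 2 and 2 of them, the lowest being Tfap2c (-0.21 in siPsmd14 and -0.27 in siDdb1). Of the 11 markers 8 rose in siSox2 (2.81% of all genes did), 3 in siPsmd14 (1.7%) and 0 in siDdb1 (0.044%). Of 12 fibroblast markers the sum was 2461 to 3902 in siSox2, 2176 to 3311 in siPsmd14 and 1595 to 1934 in siDdb1, against 982 to 1054 in siNonTarget. Most of that sum was 1 gene, Tagln, which read 11.08 and 11.74 in siSox2, against 9.44 and 9.64 in siNonTarget, while the list's median fold changes were 0.23, 0.07 and 0.03 in siSox2, siPsmd14 and siDdb1. Past the threshold 3, 2 and 0 of the 12 were higher, where 2.81%, 1.7% and 0.044% of all genes were. Lower were 1, 0 and 0 of them, where 1.46%, 0.187% and 0% of all genes were. Of the 12, 3 to 6 lay above the array median on each array, and the collagen genes Col1a1 and Col3a1 lay between 3.20 and 4.20, below the array medians of 4.775 to 4.849. The part of these markers in the results was not tested.

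None of the 42 genes passed an adjusted p of 0.05 against siNonTarget in siSox2, siPsmd14 or siDdb1 in limma, where p-values were adjusted over all 45037 probe sets. By their brightest probe sets 4.28% of all genes passed in siSox2 (2.81% higher and 1.46% lower), 1.89% in siPsmd14 (1.7% higher and 0.187% lower) and 0.044% in siDdb1 (all of them higher), so a count of 0 of 42 is near the background in each. At an unadjusted limma p of 0.05, 4 of the 42 genes passed in siSox2, all lower (19.1% of all genes). By the same measure 5 passed in siPsmd14, 2 higher and 3 lower (17.1% of all genes), and 0 in siDdb1 (9.86% of all genes). The list median was a log2 fold change of -0.10 in siSox2, -0.10 in siPsmd14 and -0.001 in siDdb1, beside medians of -0.03, -0.01 and -0.01 over all genes. Below 0 lay 30, 28 and 21 of the 42 in siSox2, siPsmd14 and siDdb1, where 10048, 9570 and 9672 of 18193 genes did.

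For each of the 42 genes the 95% confidence interval of the fold change lay inside 2-fold in either direction, in all 3 knockdowns. Over all genes this held for 16341 of 18193 in siSox2, 16645 in siPsmd14 and 17160 in siDdb1. Inside 1.5-fold lay the intervals of 34 of the 42 in siSox2, 29 in siPsmd14 and 41 in siDdb1, where those of 11276, 11459 and 12721 of the 18193 genes did. The median SE was 0.137 log2 units for the 42 genes, beside 0.151 over all genes. The 42 genes were bright: their lowest value on any array was 7.96 (Gins3), above the array medians of 4.775 to 4.849. The counts over all genes include genes below these medians. The widest reach of any interval was 0.987 log2 units, for Rpa3 in siPsmd14. These intervals are per gene and are not adjusted for the number of genes, and they were computed with all 8 arrays only.

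**Figure D1:**
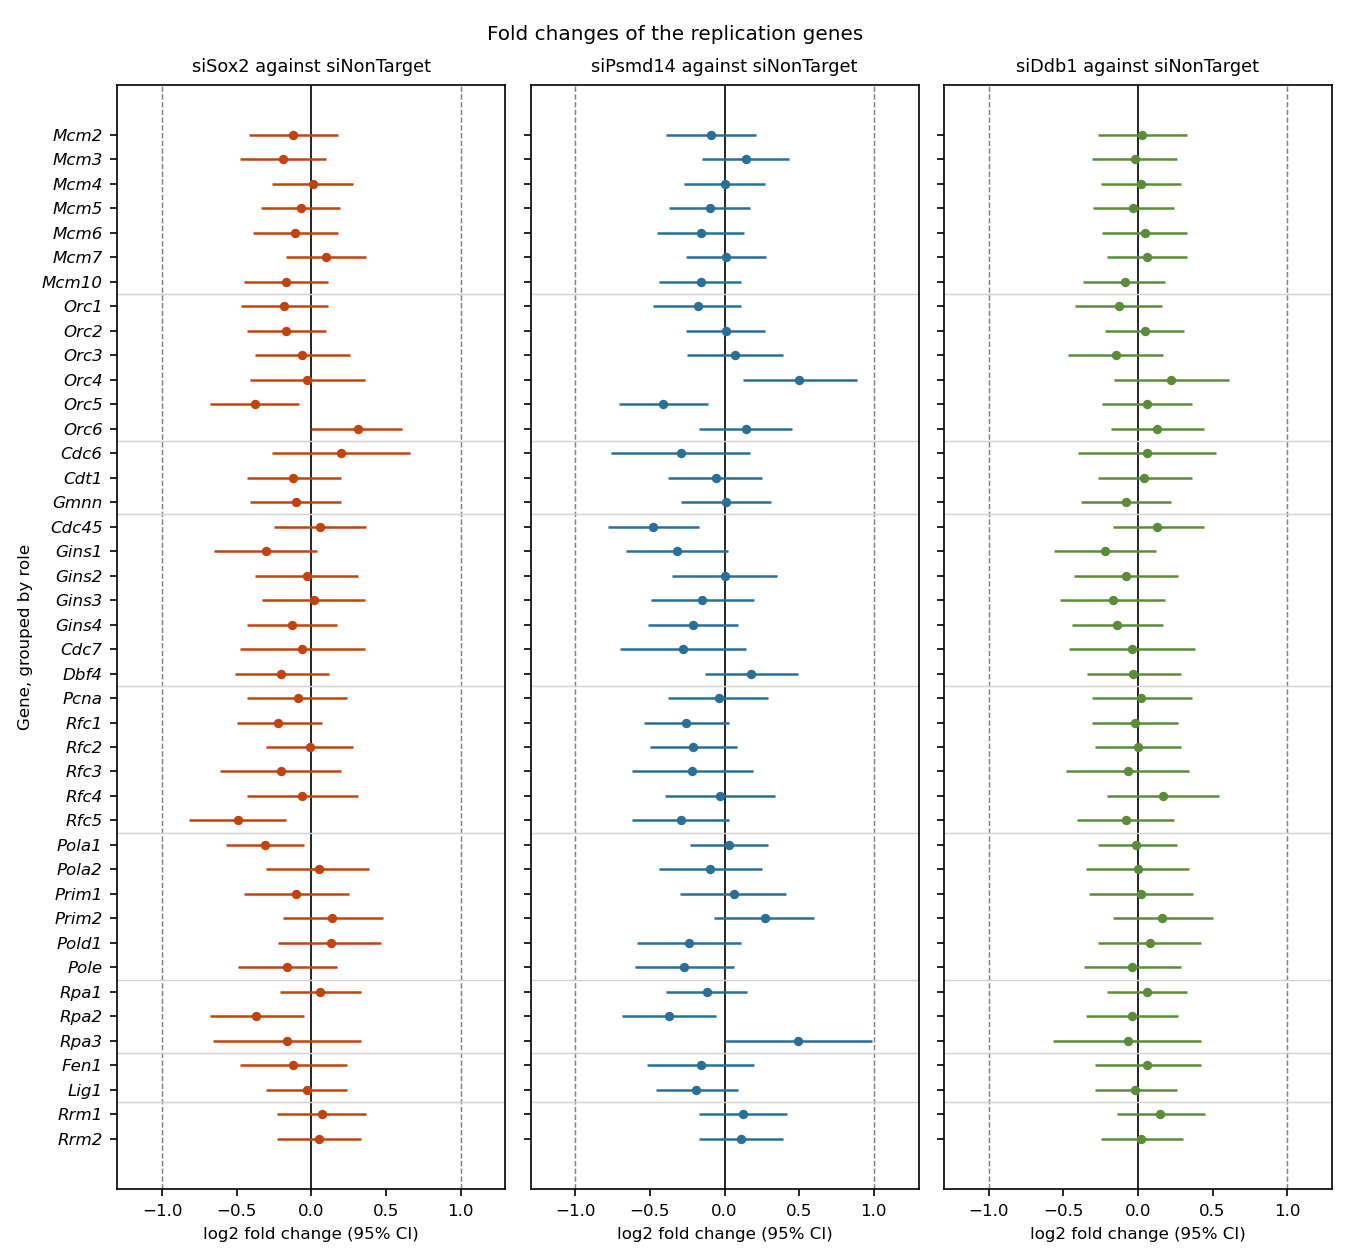
Log2 fold change against siNonTarget (x axis) of each of the 42 genes (y axis, grouped by role) in siSox2, siPsmd14 and siDdb1, with bars for the 95% confidence interval from limma and dashed lines at a 2-fold difference. Every interval ends inside the dashed lines, and the points of siDdb1 lie between -0.22 and 0.22.

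On the individual arrays the 42 genes lay, relative to the siNonTarget mean, at a median of -0.031 and -0.122 in siSox2. The medians were -0.123 and -0.050 in siPsmd14 and -0.006 and 0.011 in siDdb1. The siNonTarget arrays themselves lay at 0.040 and -0.040. The list medians of siSox2 replicate 1 and of both siDdb1 arrays therefore lay between those of the control arrays. Those of siSox2 replicate 2 and of both siPsmd14 arrays lay below both. Over the 42 genes replicate arrays differed by a median of 0.188 per gene in siPsmd14, against 0.0779 in siSox2, 0.106 in siDdb1 and 0.0892 in siNonTarget. Over all genes the medians were 0.177 in siPsmd14, 0.146 in siSox2, 0.151 in siDdb1 and 0.145 in siNonTarget. The siPsmd14 replicates thus agreed least, and 11 of the 42 genes differed by over 0.3 between them. A bulk array cannot tell fewer cells in a phase of the cycle from less RNA per cell.

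**Figure D2:**
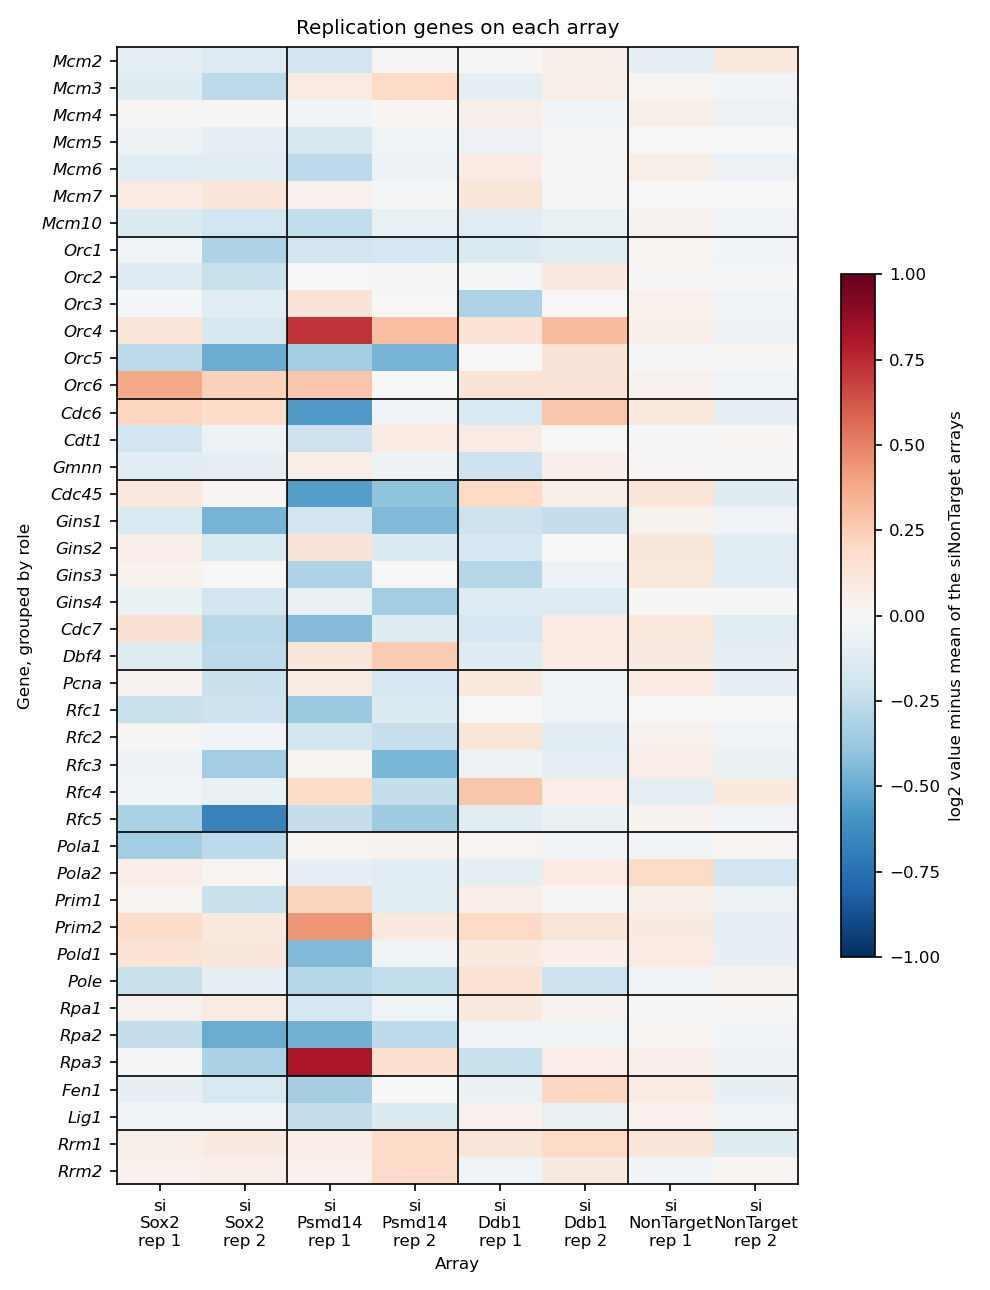
Log2 value of each gene minus its mean over the siNonTarget arrays (colour, red higher and blue lower) on each of the 8 arrays (columns), with genes in rows and black lines between roles. Most cells are pale, and the deepest colours are those of Rpa3, Orc4, Cdc6 and Cdc45 on siPsmd14 replicate 1 and Rfc5 on siSox2 replicate 2.

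The MCM genes encode the helicase that unwinds DNA at the fork, and Mcm10 helps to activate it. Their 7 fold changes ran from -0.19 (Mcm3) to 0.10 (Mcm7) in siSox2, from -0.16 (Mcm10) to 0.14 (Mcm3) in siPsmd14 and from -0.09 (Mcm10) to 0.06 (Mcm7) in siDdb1. All 7 intervals lay inside 1.5-fold in each knockdown. Mcm5 read 12.71 and 12.67 in siSox2, 12.60 and 12.72 in siPsmd14, 12.70 and 12.77 in siDdb1, against 12.76 and 12.76 in siNonTarget. Mcm7 read 13.20 and 13.24 in siSox2, 13.16 and 13.10 in siPsmd14, 13.24 and 13.11 in siDdb1, against 13.12 and 13.12 in siNonTarget. Both siSox2 arrays lay below both controls for Mcm5 and above them for Mcm7, and the group means differed by 0.07 and 0.10 log2 units, which did not pass (limma adjusted p = 0.853 and 0.778). Both siPsmd14 arrays also lay below both controls for Mcm5 (-0.10, limma adjusted p = 0.782).

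The origin recognition complex marks origins and recruits the helicase, and no subunit gene passed the threshold. The log2 fold changes of Orc1 to Orc6 ran from -0.38 to 0.31 in siSox2, from -0.41 to 0.50 in siPsmd14 and from -0.15 to 0.22 in siDdb1. The lowest in siSox2 and in siPsmd14 was Orc5, an ATP-binding subunit of the complex. Orc5 read 10.38 and 10.15 in siSox2, 10.30 and 10.18 in siPsmd14, 10.64 and 10.77 in siDdb1, against 10.63 and 10.66 in siNonTarget. Both siSox2 and both siPsmd14 arrays lay below all 4 others. The fold change was -0.38 (SE 0.13, limma adjusted p = 0.198) in siSox2 and -0.41 (SE 0.13, limma adjusted p = 0.191) in siPsmd14, and 0.06 (SE 0.13, limma adjusted p = 0.957) in siDdb1. None passed the threshold, and Orc5 has a single probe set.

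Orc4, another ATP-binding subunit, was the highest of the complex in siPsmd14 and in siDdb1. It read 8.98 and 8.70 in siSox2, 9.58 and 9.16 in siPsmd14, 9.0 and 9.17 in siDdb1, against 8.91 and 8.81 in siNonTarget. Both siPsmd14 arrays lay above both controls, with replicate 1 well above replicate 2. The fold change was 0.50 (SE 0.17, limma adjusted p = 0.211) in siPsmd14, 0.22 (SE 0.17, limma adjusted p = 0.825) in siDdb1 and -0.03 (SE 0.17, limma adjusted p = 0.971) in siSox2. The other 3 probe sets of Orc4 gave -0.19, 0.21 and 0.01 in siPsmd14, so the probe sets did not all point the same way. Orc6, which was highest of the complex in siSox2 at 0.31 (limma adjusted p = 0.341), read 10.91 and 10.76 in siSox2, against 10.57 and 10.49 in siNonTarget.

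Cdt1, the loading factor whose protein CRL4 destroys, read 12.65 and 12.79 in siSox2, 12.63 and 12.92 in siPsmd14, 12.92 and 12.84 in siDdb1, against 12.82 and 12.86 in siNonTarget. The siDdb1 and siPsmd14 arrays overlapped the controls, and the siSox2 arrays lay just below them. In siDdb1 the fold change of the Cdt1 transcript was 0.04 (SE 0.14, 95% interval -0.27 to 0.36, limma adjusted p = 0.973). In siPsmd14 it was -0.06 (SE 0.14, limma adjusted p = 0.892) and in siSox2 -0.12 (SE 0.14, limma adjusted p = 0.78). These are transcript levels, and the Cdt1 protein was not measured. The other bright probe set of Cdt1 gave 0.04 in siDdb1, -0.01 in siPsmd14 and -0.06 in siSox2.

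Gmnn, the gene of the Cdt1 inhibitor geminin, read 11.00 and 11.01 in siSox2, 11.18 and 11.06 in siPsmd14, 10.90 and 11.16 in siDdb1, against 11.12 and 11.10 in siNonTarget. Its fold changes were -0.10 (limma adjusted p = 0.8) in siSox2, 0.01 (limma adjusted p = 0.986) in siPsmd14 and -0.08 (limma adjusted p = 0.94) in siDdb1, each with an SE of 0.13. Cdt1 and its inhibitor thus both lay within 0.12 log2 units of the control in the group means. Cdc6, the ATPase that loads the helicase with Cdt1, varied more. It read 10.68 and 10.65 in siSox2, 9.90 and 10.44 in siPsmd14, 10.31 and 10.74 in siDdb1, against 10.56 and 10.37 in siNonTarget. The siPsmd14 arrays lay 0.55 apart and the siDdb1 arrays 0.43, and no fold change of Cdc6 passed the threshold (0.20, -0.29 and 0.06 in siSox2, siPsmd14 and siDdb1, each with an SE of 0.20).

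**Figure D3:**
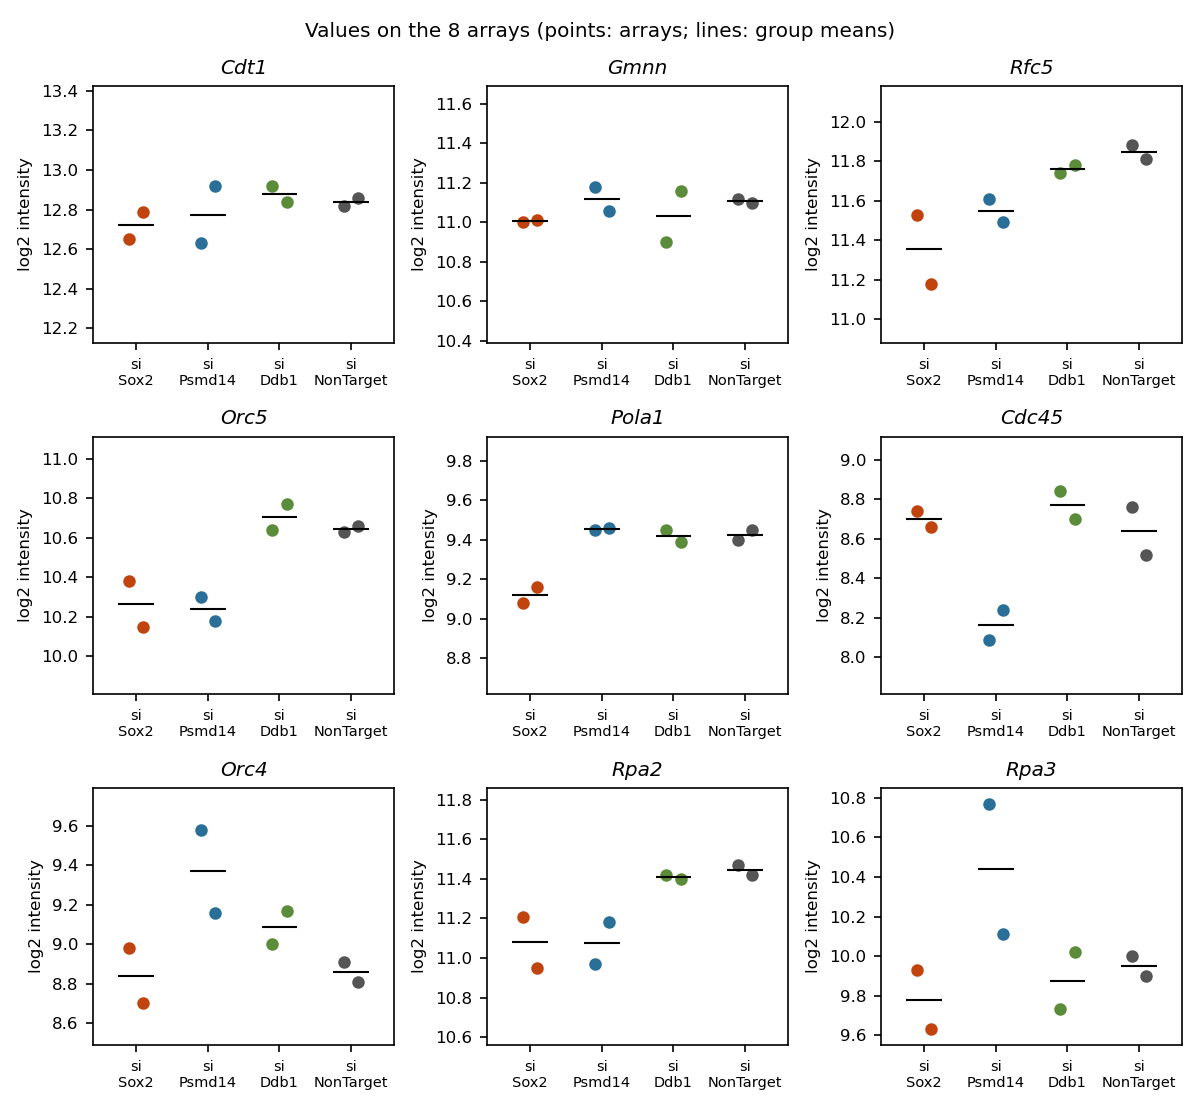
Log2 intensity (y axis, each panel 1.3 units high) of 9 genes in siSox2, siPsmd14, siDdb1 and siNonTarget (x axis), with a point for each array and a line for each group mean. Cdt1 and Gmnn stay level, Orc5 and Rpa2 are lower in siSox2 and siPsmd14, Cdc45 is lower in siPsmd14, and the siPsmd14 points of Orc4 and Rpa3 lie far apart; none of these differences passed the threshold.

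Cdc45 and GINS complete the active helicase, and the Cdc7 kinase with its activator Dbf4 triggers the step. In siPsmd14 and in siDdb1, 6 of these 7 genes had a fold change below 0, with medians of -0.21 and -0.08. In siSox2 5 of 7 did, with a median of -0.06. Of all 18193 genes 9570, 9672 and 10048 lay below 0 in siPsmd14, siDdb1 and siSox2. Cdc45 read 8.74 and 8.66 in siSox2, 8.09 and 8.24 in siPsmd14, 8.84 and 8.70 in siDdb1, against 8.76 and 8.52 in siNonTarget. Both siPsmd14 arrays lay below the other 6 arrays. The fold change in siPsmd14 was -0.48 (SE 0.14, 95% interval -0.78 to -0.17), which had the smallest p of the 42 genes there and did not pass (limma adjusted p = 0.142). It was 0.06 (limma adjusted p = 0.91) in siSox2 and 0.13 (limma adjusted p = 0.88) in siDdb1. A second, dimmer probe set of Cdc45 gave -0.09 in siPsmd14.

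Gins1, a GINS subunit, was the lowest of the 42 genes in siDdb1. It read 10.56 and 10.23 in siSox2, 10.51 and 10.25 in siPsmd14, 10.49 and 10.46 in siDdb1, against 10.73 and 10.66 in siNonTarget. All 6 knockdown arrays lay below both control arrays. The fold changes of -0.30 (limma adjusted p = 0.405), -0.32 (limma adjusted p = 0.378) and -0.22 (limma adjusted p = 0.79) in siSox2, siPsmd14 and siDdb1, each with an SE of 0.15, did not pass, and the 3 comparisons share the control arrays. Dbf4 read 11.44 and 11.30 in siSox2, 11.67 and 11.81 in siPsmd14, 11.44 and 11.64 in siDdb1, against 11.65 and 11.47 in siNonTarget.

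PCNA is the sliding clamp that holds polymerases on DNA, and the Rfc genes encode the clamp loader. All 6 fold changes were below 0 in siSox2 (median -0.15) and in siPsmd14 (median -0.21), and 3 of 6 were below 0 in siDdb1 (median -0.01). Over all genes 10048, 9570 and 9672 of 18193 lay below 0 in siSox2, siPsmd14 and siDdb1. Rfc5, a small subunit of the loader, had the smallest p of the 42 genes in siSox2. It read 11.53 and 11.18 in siSox2, 11.61 and 11.49 in siPsmd14, 11.74 and 11.78 in siDdb1, against 11.88 and 11.81 in siNonTarget. All 6 knockdown arrays lay below both controls, and the siSox2 arrays stood 0.35 apart. The fold change was -0.49 (SE 0.14, 95% interval -0.82 to -0.17, limma adjusted p = 0.126) in siSox2, -0.29 (SE 0.14, limma adjusted p = 0.403) in siPsmd14 and -0.08 (SE 0.14, limma adjusted p = 0.945) in siDdb1. Pcna read 13.50 and 13.24 in siSox2, 13.54 and 13.30 in siPsmd14, 13.56 and 13.43 in siDdb1, against 13.55 and 13.38 in siNonTarget. Its fold changes were -0.09, -0.04 and 0.02 in siSox2, siPsmd14 and siDdb1, smaller than the distance between the control arrays.

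Pola1 and Pola2 encode subunits of DNA polymerase alpha and Prim1 and Prim2 the primase, which together start each new strand. Pold1 and Pole are the catalytic subunits of polymerases delta and epsilon, which extend it. Pola1 read 9.08 and 9.16 in siSox2, 9.45 and 9.46 in siPsmd14, 9.45 and 9.39 in siDdb1, against 9.40 and 9.45 in siNonTarget. The siSox2 arrays lay below the other 6. The fold change in siSox2 was -0.31 (SE 0.12, 95% interval -0.57 to -0.05, limma adjusted p = 0.235), beside 0.03 in siPsmd14 and -0.01 in siDdb1. Of these 6 genes 3 lay below 0 and 3 above it in each of the knockdowns. Prim2, which lay above both controls on all 6 knockdown arrays, had fold changes of 0.14 in siSox2, 0.27 in siPsmd14 and 0.16 in siDdb1, none of which passed.

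Replication protein A coats the single-stranded DNA behind the helicase, and its 3 subunit genes are given one by one. Rpa2 read 11.21 and 10.95 in siSox2, 10.97 and 11.18 in siPsmd14, 11.42 and 11.40 in siDdb1, against 11.47 and 11.42 in siNonTarget. Its fold change was -0.37 in siSox2 (SE 0.14, limma adjusted p = 0.241) and -0.37 in siPsmd14 (SE 0.14, limma adjusted p = 0.252), and a second probe set gave -0.36 and -0.63 there. Rpa3 read 9.93 and 9.63 in siSox2, 10.77 and 10.11 in siPsmd14, 9.73 and 10.02 in siDdb1, against a mean of 9.95 in siNonTarget (SD 0.0743, n = 2). The siPsmd14 arrays of Rpa3 differed by 0.66, the widest gap between replicates in the list, and replicate 1 was the higher of them. The fold change was 0.49 (SE 0.22, limma adjusted p = 0.343). The fold changes of Rpa1 ran from -0.12 to 0.06.

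Fen1 trims and Lig1 seals Okazaki fragments, and the ribonucleotide reductase genes Rrm1 and Rrm2 supply deoxynucleotides. Fen1 and Lig1 had fold changes of -0.12 and -0.03 in siSox2. They were -0.16 and -0.19 in siPsmd14 and 0.06 and -0.02 in siDdb1. Rrm1 read 11.14 and 11.17 in siSox2, 11.15 and 11.27 in siPsmd14, 11.20 and 11.28 in siDdb1, against 11.20 and 10.96 in siNonTarget. Its fold change in siDdb1 was 0.15 (SE 0.13, limma adjusted p = 0.849), the third smallest p of the list there, and the groups overlapped. Rrm2 had fold changes of 0.05, 0.11 and 0.02 in siSox2, siPsmd14 and siDdb1. The intervals of these 4 genes lay inside 1.5-fold in every knockdown.

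In siSox2 19 of the 42 genes had both arrays below both controls and 7 had both above, where 29.3% and 23.3% of all genes did. In siPsmd14 the counts were 15 below and 6 above, where 24.1% and 22.4% of all genes did. In siDdb1 they were 6 below and 4 above, where 22.3% and 19.8% of all genes did. Between knockdowns, 9 of the 42 genes were lower without overlap and 8 higher in siPsmd14 against siSox2 (22.4% and 25.5% of all genes), and 3 lower and 15 higher in siDdb1 against siSox2 (23.9% and 26.4%). In siPsmd14 against siDdb1 13 were lower and 4 higher (20.5% and 19.6%).

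The knockdowns were also set against each other, which leaves out the shared control means, although each knockdown enters 2 of these comparisons. None of the 42 genes passed in siPsmd14 against siSox2 (4.03% of all genes passed, 1.98% higher and 2.05% lower), in siDdb1 against siSox2 (4.63%, 2.03% higher and 2.6% lower) or in siPsmd14 against siDdb1 (0.588%, 0.456% higher and 0.132% lower). At an unadjusted limma p of 0.05 the counts were 8, 4 and 4 of 42, where 19.5%, 19% and 12.4% of all genes passed. The smallest adjusted p of any of the 252 tests on these genes was that of Cdc45 in siPsmd14 against siSox2, with a fold change of -0.54 (SE 0.14, 95% interval -0.84 to -0.23, limma adjusted p = 0.0806). Cdc45 was also lowest in siPsmd14 against siDdb1, at -0.61 (SE 0.14, limma adjusted p = 0.119). Orc5 gave 0.44 in siDdb1 against siSox2 (SE 0.13, limma adjusted p = 0.137) and -0.47 in siPsmd14 against siDdb1 (SE 0.13, limma adjusted p = 0.215). Rpa3 gave 0.66 in siPsmd14 against siSox2 (SE 0.22, limma adjusted p = 0.169), and it passed without siPsmd14 replicate 2 (0.99, limma adjusted p = 0.036), which left replicate 1 as the only siPsmd14 array. In siDdb1 against siSox2, 31 of the 42 fold changes were above 0, where 9771 of 18193 genes were. Their median was 0.08, beside 0.02 over all genes.

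The 42 genes had 93 probe sets, and 32 genes had more than 1. Among 42 further probe sets at least as bright as the median probe set, the sign of the fold change matched that of the brightest probe set of the same gene in 32 in siSox2, 28 in siPsmd14 and 32 in siDdb1. Of all 45037 probe sets 1320 passed the threshold against siNonTarget in siSox2, 609 in siPsmd14 and 12 in siDdb1. Of the 93, 1 passed, a dim probe set of Mcm10 (mean log2 value 5.45) that was singled out after its value was seen. This probe set fell by 0.65 in siSox2 (SE 0.14, limma adjusted p = 0.0441). It lost the call with array medians subtracted, with eBayes trend and robust, with only the 4 arrays compared and without any 1 of the 8 arrays, with values from -0.79 to -0.51, and the brightest probe set of Mcm10 gave -0.17 (limma adjusted p = 0.604).

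The 9 genes with an E2F word in their promoter window had median fold changes of -0.07 in siSox2, -0.15 in siPsmd14 and -0.03 in siDdb1. The 25 genes without one had -0.10, -0.09 and 0.02. Their ranges overlapped in each knockdown, -0.31 to 0.20 beside -0.49 to 0.31 in siSox2, for example, and no difference between these sets was tested.

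Other genes of the pathway were read from lists of further replication genes, checkpoint genes, mitosis genes and regulators of the G1 to S transition. Of 37 further replication genes measured none passed in any knockdown, where 4.28%, 1.89% and 0.044% of all genes did in siSox2, siPsmd14 and siDdb1. The smallest p were those of the origin firing factor Ticrr (-0.52, limma adjusted p = 0.126) and the clamp loader subunit Chtf18 (-0.48, limma adjusted p = 0.133) in siSox2. In siPsmd14 they were those of the polymerase alpha partner Wdhd1 (-0.54, limma adjusted p = 0.105) and the histone chaperone subunit Chaf1b (-0.47, limma adjusted p = 0.168), and in siDdb1 those of the ribonucleotide reductase subunit Rrm2b (0.44, limma adjusted p = 0.392) and the thymidylate synthase Tyms (-0.46, limma adjusted p = 0.605). Tyms was dim, at 5.20 and 4.70 in siDdb1, against 5.41 and 5.41 in siNonTarget, near the array medians of 4.775 to 4.849. The median fold changes of the 37 genes were -0.09 in siSox2, -0.20 in siPsmd14 and -0.06 in siDdb1. In siPsmd14, 32 of the 37 lay below 0, where 9570 of 18193 genes did. Of the 37, 12 had an unadjusted limma p under 0.05, all lower, where 1468 of 18193 genes were lower by that measure, and 24 had both arrays below both controls, where 24.1% of all genes did. In siSox2 5 and in siDdb1 4 of the 37 had such a p, where 19.1% and 9.86% of all genes did. Both arrays lay below both controls for 18 in siSox2 and 12 in siDdb1 (29.3% and 22.3% of all genes). They lay above for 7 and 3 (23.3% and 19.8%).

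None of 13 replication checkpoint genes and none of 29 mitosis genes passed against siNonTarget. Of all genes 4.28% passed in siSox2, 1.89% in siPsmd14 and 0.044% in siDdb1. In the first of these lists the medians were -0.27 in siSox2, -0.14 in siPsmd14 and -0.02 in siDdb1, and the smallest p were those of 2 genes of the checkpoint clamp in siSox2, Rad1 (-0.43, limma adjusted p = 0.171) and Hus1 (-0.47, limma adjusted p = 0.228). In siPsmd14 they were those of Rad1 (-0.55, limma adjusted p = 0.112) and the histone gene H2ax (-0.48, limma adjusted p = 0.189), and in siDdb1 those of the checkpoint kinase gene Chek2 (0.31, limma adjusted p = 0.643) and H2ax (-0.27, limma adjusted p = 0.725). At an unadjusted limma p of 0.05, 3, 3 and 0 of the 13 passed in siSox2, siPsmd14 and siDdb1, where 19.1%, 17.1% and 9.86% of all genes did. The mitosis medians were 0.00, -0.18 and -0.09, and 1, 4 and 0 of the 29 passed at an unadjusted limma p of 0.05, beside the same shares of all genes. The mitotic kinase gene Aurka (-0.44, limma adjusted p = 0.159) and the cyclin gene Ccnb2 (-0.43, limma adjusted p = 0.162) had the smallest p in siPsmd14, and the securin gene Pttg1 (0.59, limma adjusted p = 0.123) and the centromere histone gene Cenpa (-0.31, limma adjusted p = 0.444) in siSox2. In siDdb1 they were those of the mitotic kinase gene Nek2 (-0.25, limma adjusted p = 0.672) and of Pttg1 (0.34, limma adjusted p = 0.676).

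Some regulators of the G1 to S transition passed the threshold. Of 26 measured, 2 rose and 2 fell in siSox2 (2.81% and 1.46% of all genes did), and 3 rose in siPsmd14 (1.7% of all genes did). None passed in siDdb1, where 0.044% of all genes did. At an unadjusted limma p of 0.05, 9, 8 and 6 of the 26 passed in siSox2, siPsmd14 and siDdb1, where 19.1%, 17.1% and 9.86% of all genes did. In siSox2 the D-type cyclin gene Ccnd2 fell by 2.21 on the log2 scale (limma adjusted p = 0.00189) and Ccnd1 fell by 1.31 (limma adjusted p = 0.0035), and the CDK inhibitor genes rose, Cdkn1c (p57) by 2.57 (limma adjusted p = 0.00473) and Cdkn1a (p21) by 1.24 (limma adjusted p = 0.0322). Ccnd2 read 5.40 and 5.86 in siSox2, against 7.76 and 7.92 in siNonTarget. In siPsmd14 Cdkn1a rose by 1.32 (limma adjusted p = 0.0423), the repressor gene E2f6 by 1.29 (limma adjusted p = 0.0402) and the retinoblastoma gene Rb1 by 1.75 (limma adjusted p = 0.0484).

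Cdkn1a, whose protein inhibits CDK2 and binds PCNA, and which like Cdt1 is a CRL4-Cdt2 substrate, read 9.36 and 9.99 in siSox2, 9.87 and 9.62 in siPsmd14, 9.87 and 9.25 in siDdb1, against 8.41 and 8.45 in siNonTarget. All 6 knockdown arrays lay above both controls, and in siDdb1 the fold change of 1.13 (SE 0.24, limma adjusted p = 0.244) did not pass, nor did Rb1 there (1.46, limma adjusted p = 0.268). The calls of Cdkn1a were lost without either control array and without siSox2 replicate 2 in siSox2, where the fold change was then 0.93 to 1.26, and without any of the 4 arrays compared in siPsmd14, where it was 1.19 to 1.44. It was also lost there with the replicate block. Ccnd1 lost its call without siNonTarget replicate 2. E2f6 lost its call without siPsmd14 replicate 1, where the fold change was 0.88, without 6 other single arrays and with only the 4 arrays compared. Rb1 lost its call with the replicate block, with quantile normalization, without the dimmer 50% of probe sets and without any of the 4 arrays compared. The receptor gene of the ligase, Dtl (Cdt2), had fold changes of 0.03, -0.16 and 0.08 in siSox2, siPsmd14 and siDdb1, none of which passed. Of 9 genes listed for the ligase with Ddb1, its substrates and Psmd14, Cdkn1a alone passed against siNonTarget, in siSox2 and in siPsmd14. Of all genes 4.28% passed in siSox2, 1.89% in siPsmd14 and 0.044% in siDdb1.

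**Figure D4:**
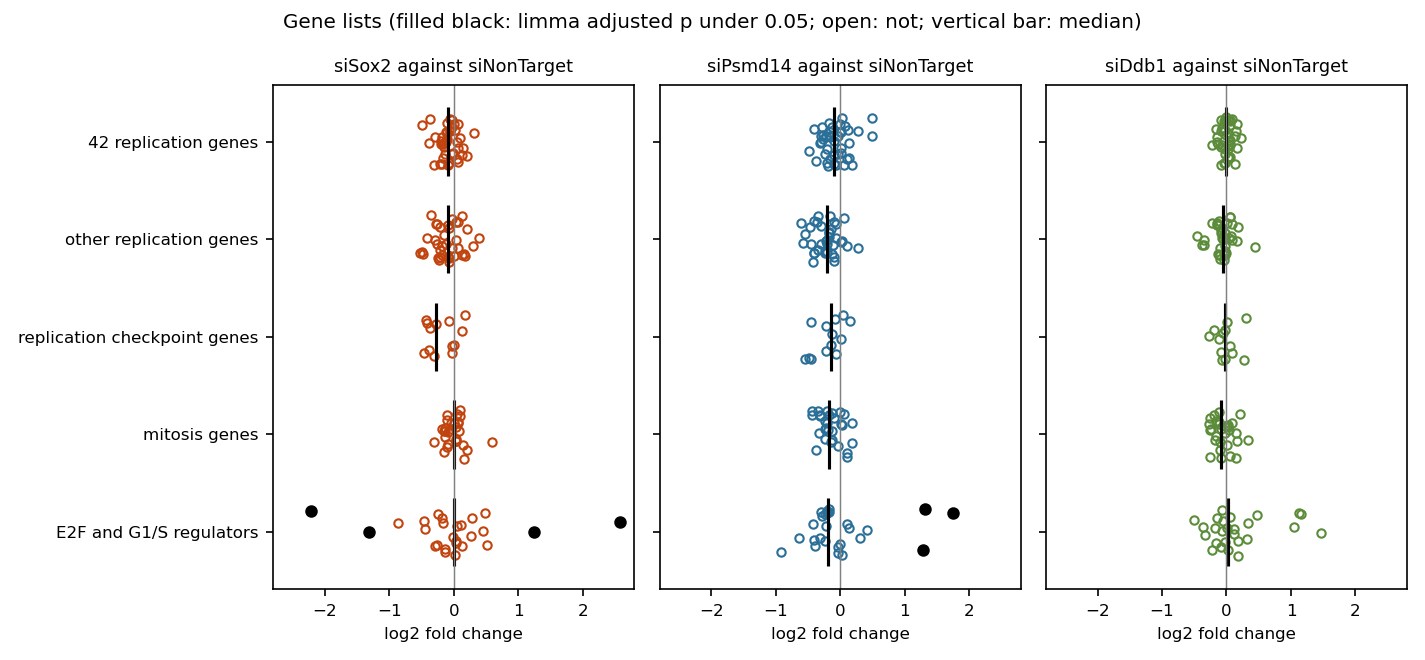
Log2 fold change against siNonTarget (x axis) in siSox2, siPsmd14 and siDdb1 for the 42 replication genes and 4 further lists (y axis), with a circle for each gene, filled black where limma's adjusted p was under 0.05, and a bar at each list's median. The 42 genes form a narrow band with no filled circle, while the list of E2F and G1/S regulators reaches from -2.21 to 2.57 in siSox2 and holds 4 filled circles there and 3 in siPsmd14.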

How the data were processed

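Total RNA of NG4 embryonic stem cells was amplified, labelled with biotin and hybridised to Affymetrix arrays, per the labels' protocols. The authors deposited RMA intensity values (the submitters' processing notes name RMA, and its version is not given in the sources used here). Their scale is linear, so log2 of each value was used. A method that brings arrays to a like distribution hides changes in total RNA per cell.

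Of 45101 probe sets, 64 controls were left out. GEO's platform annotation gave 1 symbol to 34945 of the 45037 tested, several to 932 and none to 9160, and it can be old. Each of 18193 genes was read by its brightest probe set with 1 symbol. All 8 arrays entered 1 limma model (limma 3.58.1, R 4.3.3, lmFit and eBayes, 9.02 total degrees of freedom) without a replicate block, with Benjamini-Hochberg adjustment over 45037 probe sets. Every adjusted p comes from limma. Precision is limited by having 2 arrays per group: the median SE was 0.151 log2 units. No value column lacked a sample.

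The 42 genes and the other lists were chosen with earlier results of these data known. The genes named by rule were Cdt1, Gmnn and the 3 with the smallest p in each comparison with siNonTarget, and from each other list the called genes (at most 4) or the 2 with the smallest p. Further genes were singled out after their values were seen. Some listed genes, among them Chaf1a, Tdg and Ccnb1, were not analysed here under a single symbol. The fit was tested on simulated data with independent noise and shifts larger than any fold change of the 42 genes. That test does not show how well smaller differences would be found. Alternatives changed the filter, normalization, eBayes settings, arrays fitted, replicate block and summary over probe sets. Promoter sequences are RefSeq's, build GRCm38.p6.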

Additional observations from a re-analysis of the deposited data

How the results depend on the processing

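The count of called replication genes stayed at 0 in all 6 comparisons without the dimmer 50% of probe sets, with array medians subtracted, quantile normalization, eBayes with trend and robust, only the 4 arrays compared, the mean over all probe sets of a gene and the replicate block, which changed no count of these genes. At an adjusted p of 0.1 the count was 1 in siPsmd14 against siSox2 (Cdc45). Leaving out each array gave 0 in the other 5 comparisons and 0 to 1 in siPsmd14 against siSox2 (Rpa3, without siPsmd14 replicate 2); a group with 1 array left is assumed to vary like the others. The list median ranged over the left-out arrays from -0.130 to -0.031 in siSox2, -0.123 to -0.050 in siPsmd14 and -0.039 to 0.039 in siDdb1 against siNonTarget. Against siNonTarget it was also -0.060 in siPsmd14 with the mean over probe sets, beside -0.098, and 0.009 in siDdb1 with quantile normalization, beside -0.001. Between knockdowns it ranged from -0.050 to 0.042 for siPsmd14 against siSox2, 0.013 to 0.111 for siDdb1 against siSox2 and -0.087 to -0.072 for siPsmd14 against siDdb1. For siPsmd14 against siSox2 it was -0.009, and -0.025 with array medians subtracted, 0.004 with quantile normalization and -0.027 with the mean over probe sets. For siDdb1 against siSox2 it was 0.078, and 0.050 with array medians subtracted. For siPsmd14 against siDdb1 it was -0.072, and -0.059, -0.075 and -0.093 under those 3 settings. The cause of these shifts was not tested. The sign of Pola1 turned with the mean over probe sets in siPsmd14 (-0.14) and with quantile normalization in siDdb1 (0.01), and that of Rrm1 with the mean over probe sets in siPsmd14 (-0.04). Signs also turned when 1 array was left out, over ranges of -0.21 to 0.08 (Cdt1) and -0.05 to 0.07 (Gmnn) in siPsmd14, -0.0010 to 0.09 (Cdt1), -0.21 to 0.05 (Gmnn), -0.01 to 0.13 (Orc5) and -0.03 to 0.02 (Pola1) in siDdb1, and -0.06 to 0.18 (Cdc45), -0.17 to 0.11 (Orc4) and -0.05 to 0.19 (Rrm1) in siSox2. Replicate numbers were not taken as pairs: the correlation of deviations ran from -0.217 to 0.242 over the 6 pairs of groups. The replicate block called 1256 probe sets in siSox2, 519 in siPsmd14 and 2 in siDdb1 against siNonTarget, beside 1320, 609 and 12 without it. In siDdb1 the count was also 0 with the dimmer 50% left out or with the 4 arrays alone, 18 with trend and robust, and 3 of 18193 genes with the mean over probe sets, and in siPsmd14 378 of 18193 genes. With only the 4 arrays compared the counts in siPsmd14 against siSox2, siDdb1 against siSox2 and siPsmd14 against siDdb1 were 455, 789 and 11, beside 1255, 1387 and 186, and in siPsmd14 against siSox2 809 of 18193 genes passed with the mean over probe sets. Over the left-out arrays the counts ran from 153 (without siNonTarget replicate 2) upward in siSox2, 17 (without siNonTarget replicate 2) to 1295 (without siPsmd14 replicate 2) in siPsmd14, and 0 to 146 (without siDdb1 replicate 2) in siDdb1. They ran from 325 (without siSox2 replicate 2) to 1543 (without siPsmd14 replicate 2) in siPsmd14 against siSox2, from 319 (without siDdb1 replicate 1) upward in siDdb1 against siSox2, and from 11 (without siPsmd14 replicate 1) to 884 (without siPsmd14 replicate 2) in siPsmd14 against siDdb1.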
